A study of Mus musculus and Rattus norvegicus with 36 samples.

Results

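The collagen genes are the 41 genes of the rat array and the 42 genes of the mouse array whose single gene symbol has the form Col, a type number, the letter a and a chain number. They were 41 of 14217 genes in rat liver and 42 of 18193 genes in mouse liver and mouse kidney, and 40 of them were on both arrays. Col6a6 was represented on the rat array only, and Col6a4 and Col4a3 on the mouse array only. The rule uses the symbols only, although the family was picked with earlier results of these data known. A gene measured by several probe sets (groups of short array oligonucleotides against 1 transcript) is represented by whichever probe set was brightest on average in that tissue, and the others are given where they bear on a called gene and otherwise by count.

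Collagens are trimeric proteins of the extracellular matrix whose chains are built of repeated glycine-containing triplets wound into a triple helix. Fibrillar collagens form the cables of connective tissue, type IV collagen forms the sheet of basement membranes, type VI collagen forms beaded microfibrils, and fibril-associated (FACIT) collagens coat the cables. In liver, fibrillar collagens are made mainly by stellate cells and portal fibroblasts, and their build-up is the hallmark of fibrosis, while a healthy sinusoid is lined with very little basement membrane.

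Expression arrays were used to profile RNA of rats and mice raised on graded selenium (Se). Male weanling Holtzman rats, 21 days old at the start, ate for 28 days a torula yeast diet without added Se (deficient) or the same diet with sodium selenite added (0.08, then 0.24, 0.8 and 2, and at most 5 μg Se/g), and liver was analysed. Male weanling mice of a colony with a predominantly C57 black background ate for 35 days a torula yeast diet without added Se, with 0.05 μg Se/g, or with 0.2 μg Se/g, and liver and kidney were analysed. All animals thus shared a yeast-based diet with vitamin E and methionine added, livers were perfused in place with cold KCl before RNA was taken, and each diet and tissue is represented by 3 animals with 1 array each.

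The question behind the design is how transcripts respond to Se from deficiency through the requirement to intakes that are high (2 μg Se/g) or toxic (5 μg Se/g) for a rat. Se-adequate animals (0.24 μg Se/g in rats, 0.2 μg Se/g in mice) were the reference, so the 5, 2 and deficient rat groups are all set against the same 3 arrays. Rats on the 0.08 diet and on the 0.8 μg Se/g diet belonged to a separate rat study, and here were compared only with each other. The paper also set both against the 0.24 μg Se/g rats. The methods describe each study as processed on its own. Whether that holds for the deposited rat values was not tested. Values are log2 expression, so a difference of 1 is a 2-fold change, and differences are given ± the standard error (SE) of the limma fit. A gene is called changed where its Benjamini-Hochberg adjusted P from limma over all probe sets is under 0.05.

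Array medians lay between 6.24 and 6.29 in rat liver, and arrays of 1 diet correlated at 0.972 to 0.995 in rat liver, 0.993 to 0.996 in mouse liver and 0.992 to 0.996 in mouse kidney. The rats fed 2 μg Se/g did not form a uniform group. Replicate 1 differed more than 2-fold from the mean of the 0.24 μg Se/g rats at 1964 of 31042 probe sets, against 136 and 147 for replicates 2 and 3, and its pattern of differences from that mean correlated at 0.76 with replicate 2 and at -0.02 with replicate 3. Results that rest on the 2 μg Se/g group are therefore also given without single arrays of it. Hepatocyte markers averaged 13.35 to 13.66 log2 units over rat liver arrays and 13.44 to 13.62 over mouse liver arrays, and proximal tubule markers averaged 12.44 to 12.70 over kidney arrays, as the tissue labels say. In whole tissue, more or fewer cells of a type and more or less RNA per cell cannot be told apart. The 3 animals of a group set the precision of every value, and an exact permutation test of 3 against 3 cannot give P below 0.1.

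In the liver of rats fed 5 μg Se/g, 9 of the 41 collagen genes rose relative to rats fed 0.24 μg Se/g and none fell. The background was 3.26% of all genes called higher and 0.809% called lower. The 9 genes were Col4a1 and Col4a2 of basement membrane, Col1a1, Col1a2, Col5a2 and Col11a1 of the fibrils, Col12a1 of the fibril surface, Col6a3 of the microfibrils, and Col8a2, a short chain network collagen. Their differences lay between 1.03 and 2.11 on the log2 scale, or 2.04-fold to 4.32-fold. The other 32 genes did not pass the test. Among them was Col14a1, which the paper lists as significantly lower at 5 μg Se/g. That no collagen gene fell therefore holds for the fit used here. With the 2 μg Se/g rats left out of the fit, 9 genes were again called, 8 of them the same, against 6.15% of all genes in either direction. The median difference over all 41 was 0.01 log2 units, against -0.01 over all 14217 genes.

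By class, 4 of 11 fibrillar, 2 of 5 type IV, 1 of 5 type VI, 1 of 9 FACIT and 1 of 4 short chain and anchoring fibril collagens rose. None of the 2 multiplexin, 4 transmembrane or 1 other collagens was called. At unadjusted P under 0.05 there were 14 collagen genes higher, against 10.6% of all genes, and 5 lower, against 6.46% of all genes. Counted over all 58 probe sets, 13 were called in the fit used here, all higher, against a background of 2.82% of all probe sets in either direction. All 3 arrays at 5 μg Se/g lay above all 3 at 0.24 μg Se/g for 13 genes, against 15.1% of all genes, and below them for 5 genes, against 11.7% of all genes.

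**Figure D1:**
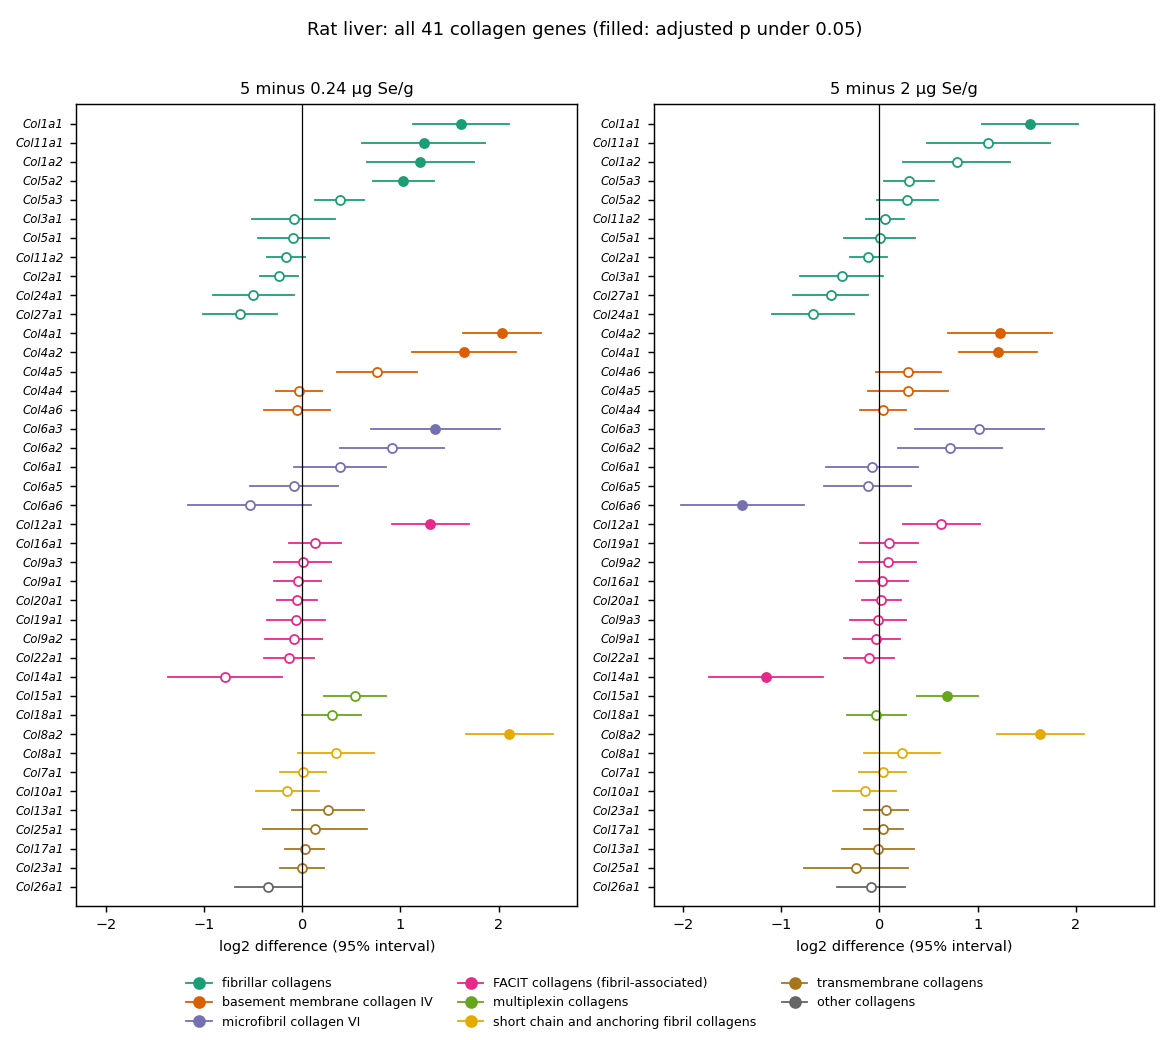
Difference in log2 expression of each of the 41 rat collagen genes, grouped by class, for 5 minus 0.24 μg Se/g and for 5 minus 2 μg Se/g, with 95% confidence intervals from limma (n = 3 rats per diet). Filled points mark genes called at adjusted P under 0.05: 9 in the first comparison, all to the right of 0, and 7 in the second, 5 to the right and 2 to the left.

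Among the fibrillar collagens, type I rose through both of its chains. Col1a1, the major chain of type I collagen, the main fibril of scar tissue, read 8.97, 9.23 and 9.03 at 5 μg Se/g, against 7.41, 7.79 and 7.19 at 0.24 μg Se/g. The lowest rat at 5 μg Se/g lay more than 1 log2 unit above the highest at 0.24 μg Se/g. The means were 9.08 ± 0.14 and 7.46 ± 0.30 (SD, n = 3 each), a difference of 1.62 ± 0.22 or 3.07-fold (limma adjusted P = 0.00338). The second Col1a1 probe set gave 2.08 ± 0.19 (adjusted P = 0.000368).

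Col1a2, the partner chain of type I, read 10.21, 10.70 and 10.67 at 5 μg Se/g and 9.18, 9.86 and 8.92 at 0.24 μg Se/g. The groups did not overlap, but the 0.24 μg Se/g rats spread over nearly 1 log2 unit. The difference was 1.20 ± 0.25, 2.3-fold (adjusted P = 0.0253), and 1.49 on the other probe set (adjusted P = 0.0181). The call was lost in 6 of 15 alternative analyses, with adjusted P of 0.0506 to 0.111 in those 6.

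Col5a2, a chain of type V collagen, which seeds type I fibrils and limits their width, read 9.22, 9.64 and 9.51 at 5 μg Se/g, against 8.46, 8.59 and 8.23 at 0.24 μg Se/g. The 2 sets were separate, and the difference of 1.03 ± 0.14 was 2.04-fold (adjusted P = 0.00338). A second probe set gave 0.92 (adjusted P = 0.0142). Its partner chain Col5a1 did not pass the test, with -0.09 ± 0.17 (adjusted P = 0.868), and Col5a3, the third type V chain, gave 0.38 ± 0.11 (adjusted P = 0.12).

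Col11a1 codes for a chain of type XI collagen, the cartilage relative of type V. It read 6.66, 5.96 and 5.12 in the 3 rats fed 5 μg Se/g and 4.76, 4.82 and 4.45 in those fed 0.24 μg Se/g. The 5 μg Se/g rats covered the widest spread among the 9 called genes, with replicate 3 close to the 0.24 μg Se/g range. The difference was 1.24 ± 0.29 (adjusted P = 0.0423). The other probe sets gave 0.42 (adjusted P = 0.062) and -0.06, and the call was lost in 8 of 14 alternative analyses.

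The gene of type III collagen was not called. Col3a1 codes for the only chain of that collagen, which is laid down together with type I in the reticular fibres of liver. It read 11.66, 11.80 and 12.23 at 5 μg Se/g and 11.85, 12.32 and 11.78 at 0.24 μg Se/g. The ranges overlapped and the difference was -0.09 ± 0.19 on its only probe set, with a 95% confidence interval of -0.51 to 0.33. Called genes were selected as high in these same data, and their responses were not tested against that of Col3a1. Of the remaining fibrillar genes, Col27a1 differed by -0.63 ± 0.17 (adjusted P = 0.0882), Col24a1 by -0.50 ± 0.19 (adjusted P = 0.237) and Col2a1 by -0.24 ± 0.09 (adjusted P = 0.214), each lower in all 3 rats at 5 μg Se/g and none past the adjusted threshold. The type XI chain Col11a2 gave -0.16 ± 0.09, also lower in all 3 rats and not called.

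Both chains of the common basement membrane collagen rose. Col4a1, one of the chains of the type IV network that underlies epithelia and vessels, read 10.71, 10.78 and 10.54 at 5 μg Se/g, against 8.72, 8.88 and 8.32 at 0.24 μg Se/g. The gap between the groups was wider than the range within either. The difference was 2.04 ± 0.18, or 4.11-fold (adjusted P = 0.000368), and 1.79 on the second probe set (adjusted P = 0.000196). Col4a2, whose chain joins Col4a1 in the common type IV trimer, read 9.89, 10.06 and 10.08 at 5 μg Se/g and 8.22, 8.34 and 8.53 at 0.24 μg Se/g, again with no overlap. It differed by 1.65 ± 0.24, or 3.13-fold (adjusted P = 0.0042).

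The other type IV chains did not pass the test. Col4a5, a chain best known from the glomerular basement membrane, read 10.12, 10.33 and 10.08 at 5 μg Se/g and 9.34, 9.65 and 9.25 at 0.24 μg Se/g. All 3 rats at 5 μg Se/g were higher, and the difference of 0.76 ± 0.18 had an adjusted P of 0.0532, just outside the threshold. The paper's discussion, by contrast, counts Col4a5 as regulated in its own data. Col4a6 and Col4a4, with low signals, differed by -0.05 ± 0.15 and -0.03 ± 0.11.

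Col4a1 and Col4a2 lie head to head, and their promoter windows are shown because the 2 genes moved together. The sequences are those of the mouse (RefSeq, GRCm38.p6), each from 250 bases before to 50 bases after the gene's start, since no rat sequence was used here. Col4a1 lies on the minus strand at chr8:11312777-11313076 and Col4a2 on the plus strand at chr8:11312555-11312854, and their starts are 21 bases apart. Capitals mark the 78 bases that both windows hold, read on opposite strands.
Col4a1: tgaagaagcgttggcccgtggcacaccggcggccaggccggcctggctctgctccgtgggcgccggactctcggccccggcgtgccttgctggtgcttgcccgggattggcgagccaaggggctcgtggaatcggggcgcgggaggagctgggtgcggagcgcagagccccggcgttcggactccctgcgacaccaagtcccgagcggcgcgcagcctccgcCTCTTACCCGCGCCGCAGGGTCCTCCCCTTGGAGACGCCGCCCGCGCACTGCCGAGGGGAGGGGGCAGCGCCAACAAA
Col4a2: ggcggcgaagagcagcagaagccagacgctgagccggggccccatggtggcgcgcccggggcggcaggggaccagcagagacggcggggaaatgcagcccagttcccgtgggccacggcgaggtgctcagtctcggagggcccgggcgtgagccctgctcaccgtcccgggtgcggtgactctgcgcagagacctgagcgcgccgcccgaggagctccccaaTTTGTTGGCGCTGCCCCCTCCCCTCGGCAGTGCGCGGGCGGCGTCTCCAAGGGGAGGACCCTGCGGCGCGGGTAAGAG

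The Col4a5 and Col4a6 genes form a pair of the same kind, but with starts 1343 bases apart and no shared bases in these windows. Promoters were found for 33 of the 42 mouse collagen genes and for 6 of the 9 that rose in rat liver (not for Col1a1, Col5a2 and Col12a1). Collagen genes were counted by 1 entry each, and the background by every entry. The motif GGGCGG, searched on both strands, was present in 21 of the 33 collagen promoters (63.6%), against 35.7% of all 32851 promoters of that length, and in 5 of the 6. The only Col4a1 match and 1 of the 3 Col4a2 matches are the same site in their shared stretch, so that site counts for both genes. CCAAT on either strand was in 12 of 33 (36.4%), against 37.4% of all, and in 4 of the 6. TATAAA was in 5 of 33 (15.2%), against 13.6%, and in none of the 6.

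The windows of Col1a2, which rose, and Col3a1, which did not pass the test, are set side by side because they code for the fibrillar collagens that share fibrils in liver. Col1a2 lies at chr6:4505368-4505667 and Col3a1 at chr1:45311288-45311587, both on the plus strand of the same build, and capitals mark CCAAT or TATAAA in either orientation. Col1a2 holds 2 CCAAT and no TATAAA, and Col3a1 holds 1 TATAAA and no CCAAT. Such matches describe the letters only.
Col1a2: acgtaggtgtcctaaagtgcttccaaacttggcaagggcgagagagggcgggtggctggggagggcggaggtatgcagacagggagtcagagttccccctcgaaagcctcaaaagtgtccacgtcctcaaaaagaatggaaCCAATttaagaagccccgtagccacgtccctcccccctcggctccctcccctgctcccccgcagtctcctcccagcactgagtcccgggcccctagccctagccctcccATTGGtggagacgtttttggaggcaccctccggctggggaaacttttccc
Col3a1: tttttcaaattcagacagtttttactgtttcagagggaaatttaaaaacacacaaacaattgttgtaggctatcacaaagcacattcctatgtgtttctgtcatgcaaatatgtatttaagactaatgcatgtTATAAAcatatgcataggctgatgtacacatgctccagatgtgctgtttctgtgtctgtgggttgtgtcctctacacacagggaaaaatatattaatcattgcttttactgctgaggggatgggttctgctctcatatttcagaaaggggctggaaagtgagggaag

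Of type VI collagen, Col6a3, the long chain whose cut-off end circulates as endotrophin, read 9.67, 9.71 and 10.04 at 5 μg Se/g and 7.87, 9.16 and 8.33 at 0.24 μg Se/g. All rats at 5 μg Se/g were higher, but the 0.24 μg Se/g rats spread over more than 1 log2 unit. The difference was 1.36 ± 0.30, 2.56-fold (adjusted P = 0.0345), and 0.56 on a second probe set (adjusted P = 0.102). The call was lost in 6 of 15 alternative analyses. The partner chains Col6a2 and Col6a1 gave 0.92 ± 0.24 (adjusted P = 0.0757) and 0.38 ± 0.21 (adjusted P = 0.447). Col6a6, an alternative to the Col6a3 chain, read 5.13, 5.25 and 6.18 at 5 μg Se/g and 6.12, 6.32 and 5.73 at 0.24 μg Se/g, a difference of -0.54 ± 0.29 that did not pass. Col6a5 gave -0.08 ± 0.20.

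Among the FACIT collagens, Col12a1 and Col14a1, close relatives that decorate type I fibrils, had differences of opposite sign. Col12a1 read 7.16, 7.47 and 7.38 at 5 μg Se/g, against 5.78, 6.49 and 5.82 at 0.24 μg Se/g, with no overlap and a difference of 1.30 ± 0.18 or 2.47-fold (adjusted P = 0.00338). Its other probe sets, which lay near the low end of the signal, both gave -0.19 and did not pass. Col14a1 read 9.13, 9.33 and 10.33 at 5 μg Se/g and 10.41, 10.66 and 10.09 at 0.24 μg Se/g. Replicates 1 and 2 at 5 μg Se/g were below every rat at 0.24 μg Se/g, but replicate 3 was among them, and the difference of -0.79 ± 0.27 did not pass (adjusted P = 0.17, and 0.0836 on its second probe set, also lower). The paper, by contrast, lists Col14a1 as significantly lower in this comparison. The difference between the responses of Col12a1 and Col14a1 was not tested. The other 7 FACIT genes lay between -0.14 and 0.13.

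Col8a2, a network collagen of vessel walls and of the corneal basement membrane, had the largest difference of the 41 genes. It read 7.78, 7.69 and 7.94 at 5 μg Se/g, against 5.52, 5.93 and 5.62 at 0.24 μg Se/g, with a wide gap between the groups. The difference was 2.11 ± 0.20, 4.32-fold (adjusted P = 0.000462). Its partner chain Col8a1 differed by 0.35 ± 0.18 (adjusted P = 0.406). In the same class, Col7a1, the anchoring fibril chain of skin, and Col10a1, of growth plate cartilage, gave 0.01 ± 0.11 and -0.15 ± 0.15. The multiplexins Col15a1 and Col18a1, which sit at basement membranes and carry the antiangiogenic endostatin-type fragments at their ends, gave 0.54 ± 0.14 (adjusted P = 0.0765) and 0.30 ± 0.14 (adjusted P = 0.336). Their other probe sets gave 0.12 ± 0.25 (adjusted P = 0.887) and 0.45 ± 0.12 (adjusted P = 0.0765), not called. Col26a1, in no class here, gave -0.35 ± 0.16 (adjusted P = 0.336). The 4 transmembrane collagens lay between 0.00 and 0.26.

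**Figure D2:**
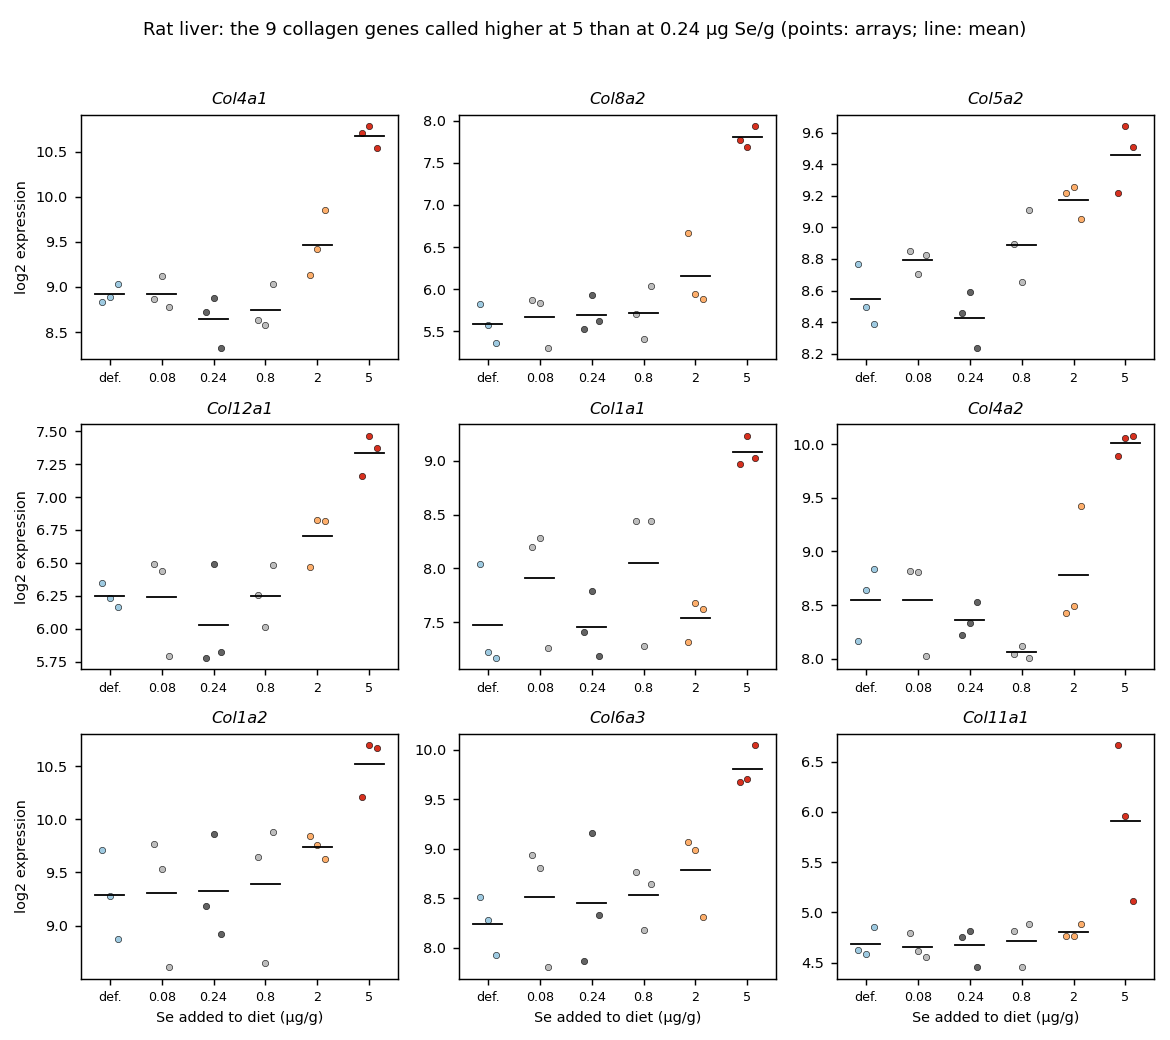
Log2 expression in single rats (points) and diet means (horizontal lines) of the 9 collagen genes called higher at 5 than at 0.24 μg Se/g, across the 6 rat diets from deficient to 5 μg Se/g. In every panel the lowest of 3 points at 5 μg Se/g lies above the highest at 0.24 μg Se/g. The 0.08 diet and 0.8 diet rats come from a separate rat study.

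Genes that fold, cut, cross-link and bind collagen were also measured. Of 19 folding and modification genes 2 rose, of 7 processing and cross-linking genes 2, of 5 collagen receptors 1 and of 8 fibril-binding proteoglycans 1, and none of the 39 fell. Against the background of 3.26% of genes called higher, the 4 lists had median differences of 0.05, 0.79, 0.43 and 0.27 log2 units.

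Plod2, the lysyl hydroxylase that marks collagen ends for stable cross-links, read 8.41 to 9.17 at 5 μg Se/g, against 6.82 to 7.47 at 0.24 μg Se/g, a difference of 1.68 ± 0.19 (adjusted P = 0.00146). Serpinh1, the collagen chaperone HSP47, read 10.38 to 10.70 at 5 μg Se/g, against 9.13 to 9.49 at 0.24 μg Se/g, a difference of 1.18 ± 0.23 (adjusted P = 0.0172). The other 17 folding genes did not pass, among them the prolyl hydroxylase P4ha1 at 0.75 ± 0.38. Lox, the copper enzyme lysyl oxidase that forms the cross-links, read 9.08 to 9.49 at 5 μg Se/g, against 6.31 to 7.87 at 0.24 μg Se/g, a difference of 2.27 ± 0.31 (adjusted P = 0.00338). Loxl1, its relative, read 8.13 to 8.19 at 5 μg Se/g, against 7.03 to 7.23 at 0.24 μg Se/g, a difference of 1.05 ± 0.12 (adjusted P = 0.00164). These 4 genes showed no overlap between the groups. Ddr2, a receptor kinase switched on by fibrillar collagen, read 6.59 to 7.31 at 5 μg Se/g, against 4.66 to 5.40 at 0.24 μg Se/g, a difference of 2.00 ± 0.22 (adjusted P = 0.00105). Aspn (asporin), a small proteoglycan that binds fibrils, read 6.31 to 6.74 at 5 μg Se/g, against 4.74 to 5.13 at 0.24 μg Se/g, a difference of 1.58 ± 0.20 (adjusted P = 0.00204). Both were likewise separate in all rats.

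Markers of several cell types differed between the same rats, where 3.26% of all genes were called higher and 0.809% lower. The activated stellate cell or myofibroblast list of 8 markers averaged 7.60 to 7.66 log2 units over the arrays at 5 μg Se/g, against 6.66 to 6.95 at 0.24 μg Se/g, and 3 of the 8 were called higher (Acta2 by 0.90, Tagln by 2.68 and Lox, counted above, by 2.27). Postn, a marker of the same list, lay near the low end of the signal in both diets. Of the 8 markers of quiescent stellate cells, which averaged 6.63 to 7.23, against 7.05 to 7.22, Des was higher by 0.93, while Lrat and Reln differed by -2.10 and -1.95 and were called lower. The endothelial list averaged 9.38 to 9.51, against 8.88 to 9.16, with 4 of 8 called higher (Pecam1, Tek, Vwf and Emcn, by 0.62 to 1.76). Portal fibroblast markers averaged 6.80 to 7.04, against 6.46 to 6.67, with 0 of 6 called. The bile duct list had Krt19 higher by 2.63 as 1 of 5, the Kupffer cell list Clec4f at -1.78 as 1 of 6, and the podocyte list Podxl, which vessels also express, at 1.65. Hepatocyte markers averaged 13.35 to 13.48, against 13.40 to 13.50, with 0 of 8 called. None of the 4 mesothelial or 2 red blood cell markers was called. What part these markers' cells have in the collagen differences was not tested.

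Set against the rats fed 2 μg Se/g, the rats fed 5 μg Se/g had 5 collagen genes higher and 2 lower, with backgrounds of 3.21% and 1.29% of all genes. The 5 were Col8a2, Col1a1, Col4a1, Col4a2 and Col15a1, and the 2 were Col6a6 and Col14a1. Col1a1 read 8.97, 9.23 and 9.03 at 5 μg Se/g and 7.32, 7.68 and 7.62 at 2 μg Se/g, a difference of 1.54 ± 0.22 (adjusted P = 0.00801). Col4a1 read 10.71, 10.78 and 10.54 at 5 μg Se/g and 9.13, 9.42 and 9.86 at 2 μg Se/g and differed by 1.21 ± 0.18 (adjusted P = 0.00864), and Col4a2 read 9.89, 10.06 and 10.08 at 5 μg Se/g and 8.43, 8.49 and 9.42 at 2 μg Se/g and differed by 1.23 ± 0.24 (adjusted P = 0.026). Col8a2 read 7.78, 7.69 and 7.94 at 5 μg Se/g and 6.67, 5.94 and 5.88 at 2 μg Se/g and differed by 1.64 ± 0.20 (adjusted P = 0.00364). For each of these 4 genes every rat at 5 μg Se/g was above every rat at 2 μg Se/g.

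Col15a1 read 6.76, 6.85 and 6.38 at 5 μg Se/g, against 5.95, 5.88 and 6.08 at 2 μg Se/g, a difference of 0.69 ± 0.14 (adjusted P = 0.0301), and 0.49 ± 0.25 (adjusted P = 0.264) on its other probe set, which was not called. Col6a6 read 5.13, 5.25 and 6.18 at 5 μg Se/g, against 7.31, 7.03 and 6.41 at 2 μg Se/g, and differed by -1.40 ± 0.29 (adjusted P = 0.0301). Relative to 0.24 μg Se/g, Col6a6 differed by 0.86 ± 0.29 at 2 μg Se/g, with all rats higher (adjusted P = 0.321). At 5 μg Se/g it differed by -0.54 ± 0.29 (adjusted P = 0.431), and neither was called. Col14a1 read 9.13, 9.33 and 10.33 at 5 μg Se/g, against 10.98, 10.79 and 10.47 at 2 μg Se/g, and differed by -1.15 ± 0.27 (adjusted P = 0.0413). Its second probe set gave -0.89 ± 0.27 (adjusted P = 0.0914) and was not called, with overlap between the diets. For both Col6a6 and Col14a1 replicates 1 and 2 at 5 μg Se/g lay below replicate 3. Only Col1a1 kept its call in all 13 alternative analyses, and the count fell to 3 on leaving out replicate 1 or 2 of either diet, where 0.689% to 1.15% of all genes were called, against 4.50% with every rat. Without replicate 3 of the 2 μg Se/g diet it was 13, where 33.6% of all genes were called.

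Col5a2, which rose at 5 relative to 0.24 μg Se/g, was not called here. It read 9.22, 9.64 and 9.51 at 5 μg Se/g and 9.22, 9.25 and 9.05 in rats on 2 μg Se/g, all above those at 0.24 μg Se/g, and the difference between 5 and 2 μg Se/g was 0.28 ± 0.14 (95% confidence interval -0.03 to 0.59, adjusted P = 0.245). Col1a2, Col6a3, Col12a1 and Col11a1 differed by 0.79 ± 0.25, 1.02 ± 0.30, 0.63 ± 0.18 and 1.11 ± 0.29 and were not called on the probe sets that stand for them. The second Col1a2 probe set was called, with all rats at 5 μg Se/g higher and a difference of 1.39 ± 0.29 (adjusted P = 0.0304), as were the second probe sets of Col1a1 and Col4a1, with 1.74 ± 0.19 (adjusted P = 0.00204) and 0.94 ± 0.14 (adjusted P = 0.00888). The remaining 14 of the 17 other collagen probe sets were not called. Of the other collagen pathway genes, Plod2 (1.16 ± 0.19), Lox (1.48 ± 0.31), Loxl1 (0.89 ± 0.12), Pcolce, the enhancer of propeptide removal (0.77 ± 0.18), Ddr2 (0.88 ± 0.22) and Aspn (1.12 ± 0.20) were higher at 5 than at 2 μg Se/g, and none of the 39 was lower.

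**Figure D3:**
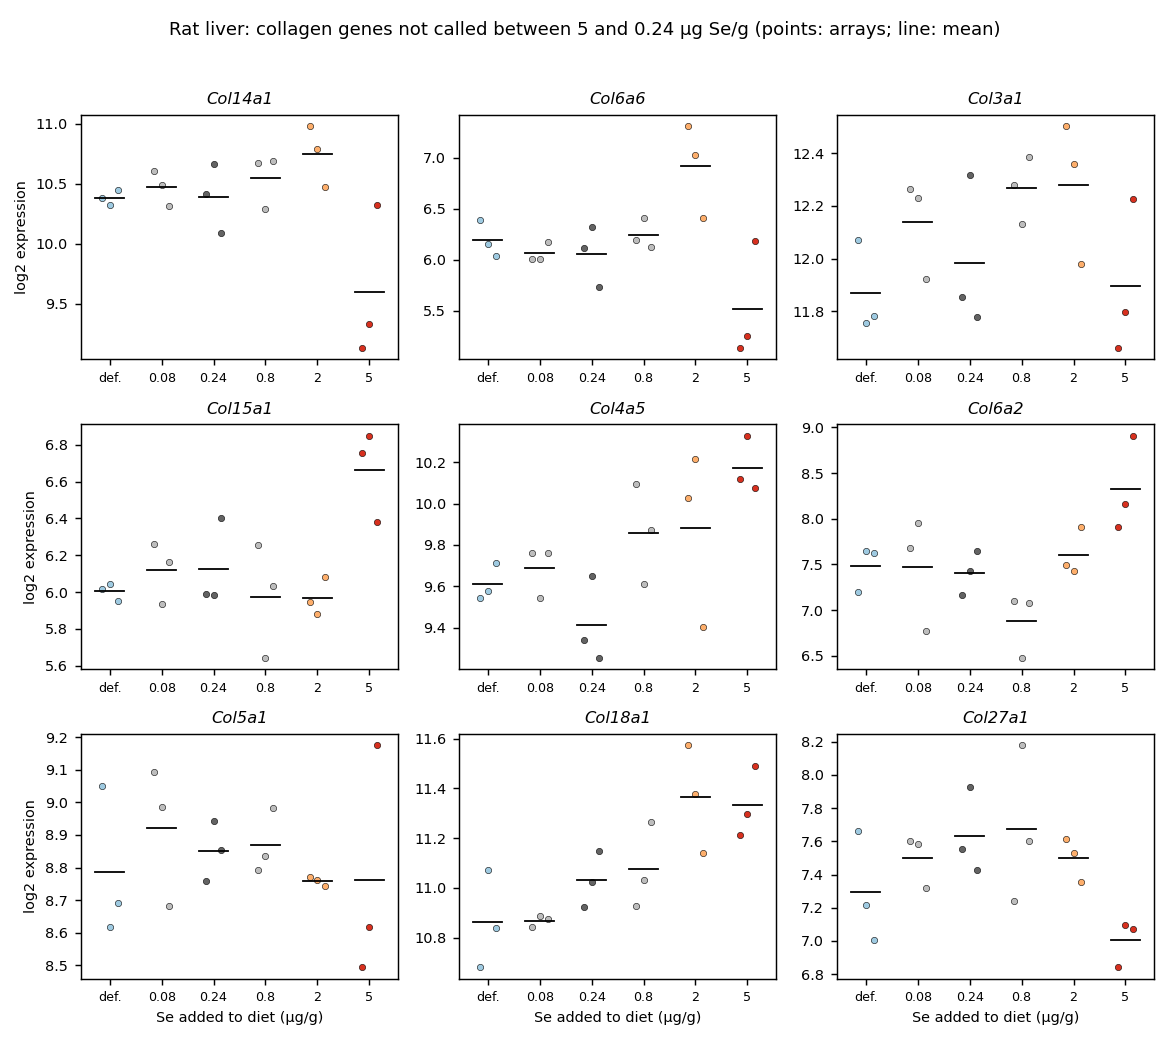
Log2 expression in single rats (points) and diet means (horizontal lines) of 9 further collagen genes across the 6 rat diets. Rats of the 0.08 diet and the 0.8 diet come from a separate rat study. For Col14a1 and Col6a6, 2 of the 3 rats at 5 μg Se/g lie below all other rats and replicate 3 lies among the other diets.

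At 2 μg Se/g no collagen gene was called relative to 0.24 μg Se/g by limma, where 0.00703% of all genes were called. At unadjusted P under 0.05 there were 7 collagen genes higher and 2 lower (9 of 41), against 18.7% of all genes. The rats did not overlap for 5 genes that were higher and 1 that was lower, against 6.39% and 6.98% of all genes. The 2 genes with the smallest P among the higher were Col5a2, at 9.22, 9.25 and 9.05, against 8.46, 8.59 and 8.23 at 0.24 μg Se/g, a difference of 0.75 ± 0.14, and Col4a1 with 0.83 ± 0.18 (adjusted P = 0.321 for both). Among the lower they were Col11a2, a type XI chain, with -0.22 ± 0.09, and Col4a6 with -0.35 ± 0.15. Col1a1 differed by 0.08 ± 0.22. None of the 39 other collagen pathway genes was called at 2 μg Se/g, with Ddr2 at 1.11 ± 0.22 and Dcn (decorin, a fibril-binding proteoglycan) at 1.32 ± 0.36 (adjusted P = 0.321 for both), and none was called in the deficient or the 0.8 μg Se/g comparison. The median over the 41 collagen genes was 0.08, against -0.04 over all genes. Without replicate 3 of the 2 μg Se/g rats 7 collagen genes were called, where 24.2% of all genes were called, and none was called without replicate 1 or without replicate 2. The 17 other collagen probe sets were not called at 2 μg Se/g or in the deficient and 0.8 μg Se/g comparisons.

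Se deficiency left the rat collagen genes without a call. Relative to 0.24 μg Se/g, 0 of 41 were called by limma (0.00703% of all genes) and 1 reached unadjusted P under 0.05 (3.52% of all genes). The smallest P values were those of Col13a1, a transmembrane collagen of cell junctions (0.38 ± 0.17), and Col4a1 (0.28 ± 0.18) among the higher, and Col2a1, the cartilage fibril chain (-0.19 ± 0.09), and Col27a1 (-0.34 ± 0.17) among the lower. Col1a1 read 8.05, 7.22 and 7.17 in deficient rats, against 7.41, 7.79 and 7.19, and Col5a2 read 8.77, 8.49 and 8.39, against 8.46, 8.59 and 8.23. Both overlapped, with differences of 0.02 ± 0.22 and 0.12 ± 0.14. Col4a1 read 8.83, 8.89 and 9.03 in deficient rats. The median over the 41 genes was -0.04, against 0.00 over all genes. The 95% confidence interval of the difference was -0.47 to 0.51 for Col1a1 and -0.12 to 0.68 for Col4a1.

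In the separate rat study, 0 of 41 genes were called at 0.8 relative to 0.08 μg Se/g (0% of all genes), and 2 reached unadjusted P under 0.05 (5.21% of all genes). The smallest P values among the higher were those of Col13a1 (0.44 ± 0.18) and Col6a5 (0.24 ± 0.10), and among the lower those of Col4a2 (-0.49 ± 0.20) and Col6a2 (-0.59 ± 0.30). Col1a1 read 8.45, 7.28 and 8.44 at 0.8 μg Se/g and 8.20, 8.28 and 7.26 at 0.08 μg Se/g. Within each diet 1 rat lay about 1 log2 unit below the other 2, replicate 2 at 0.8 μg Se/g and replicate 3 at 0.08 μg Se/g, and those same rats were the lowest for Col1a2. Col4a1 read 8.63, 8.58 and 9.03, against 8.87, 9.12 and 8.78, and Col5a2 8.89, 8.65 and 9.11, against 8.85, 8.70 and 8.82. The differences of these 3 genes were 0.14 ± 0.36, -0.18 ± 0.15 and 0.09 ± 0.13, within the spread between rats.

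No collagen gene was called in mouse liver. Deficient livers, relative to 0.2 μg Se/g, had 0 of 42 called by limma (0.0385% of all genes) and 1, Col6a5, at unadjusted P under 0.05 (3.90% of all genes). Col1a1 read 6.22, 6.34 and 6.34 in deficient mice, against 6.20, 6.20 and 6.32 in mice fed 0.2 μg Se/g (0.06 ± 0.09). Col4a1 read 8.90, 9.14 and 9.05, against 9.12, 9.07 and 9.15 (-0.08 ± 0.11). Both genes overlapped between the diets. Col5a2 read 6.30, 6.34 and 6.33, against 6.33, 6.29 and 6.53 (-0.06 ± 0.11), also with overlap. The smallest P values belonged to Col9a3 (0.11 ± 0.10) and Col13a1 (0.09 ± 0.10) among the higher and to Col6a5 (-0.20 ± 0.09) and Col6a2 (-0.17 ± 0.08) among the lower. The median was -0.07, against -0.01 over all genes, and the lowest adjusted P was 0.926.

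Livers of mice fed 0.05 μg Se/g likewise had 0 of 42 called (0% of all genes), and 2 at unadjusted P under 0.05 (1.71% of all genes). These were Col1a1, at 6.28, 6.54 and 6.59 (0.23 ± 0.09), and Col6a1 (0.19 ± 0.07), both higher than at 0.2 μg Se/g. Col4a1 read 8.96, 9.14 and 9.38 and Col5a2 6.32, 6.32 and 6.72, each with replicate 3 the highest. Col11a1 (-0.19 ± 0.10) and Col6a5 (-0.17 ± 0.09) had the smallest P values among the lower genes.

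In mouse kidney, where type IV chains build the glomerular and tubular basement membranes, deficiency gave 0 of 42 calls (0.0165% of all genes). At unadjusted P under 0.05 there were 9 genes, 8 of them higher, against 5.69% of all genes in either direction. The smallest P values were those of Col6a2 (0.27 ± 0.08) and Col6a4 (0.25 ± 0.08) among the higher, and Col13a1 (-0.21 ± 0.09) and Col19a1 (-0.22 ± 0.13) among the lower. For Col6a2 the deficient kidneys read 8.22, 8.22 and 8.44, all above those at 0.2 μg Se/g with 8.04, 8.01 and 8.01. Its adjusted P was 0.893. Col1a1 read 6.16, 6.13 and 6.22 in deficient kidneys, against 5.96, 6.11 and 6.27 (0.05 ± 0.08). Col4a1 read 10.65, 11.28 and 11.24, against 11.25, 11.05 and 10.90 (-0.01 ± 0.17), and Col5a2 6.40, 6.33 and 6.43, against 6.41, 6.42 and 6.51 (-0.06 ± 0.08). These 3 genes overlapped between the diets.

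At 0.05 μg Se/g the kidney again had 0 calls (0% of all genes) and 5 genes at unadjusted P under 0.05, 4 of them higher (2.89% of all genes). Col6a2 (0.25 ± 0.08) and Col2a1 (0.25 ± 0.08) led the higher genes, and Col13a1 (-0.22 ± 0.09) and Col18a1 (-0.14 ± 0.13) the lower. The 2 kidney comparisons share the 0.2 μg Se/g arrays, so that similar values in both are not separate evidence. Col1a1 read 6.21, 6.17 and 6.25, Col4a1 10.88, 11.20 and 11.19 and Col5a2 6.29, 6.52 and 6.43 at 0.05 μg Se/g.

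The response to deficiency was tested between the 2 mouse tissues as an interaction. The fit treated the 18 mouse arrays as independent, although liver and kidney came from the same mice. A block by diet and replicate number also gave no collagen call. None of 42 genes was called (0.00550% of all genes), and 9 reached unadjusted P under 0.05, 8 with a lower and 1 with a higher response in liver than in kidney (5.44% of all genes). The smallest P values were those of Col6a2, at -0.44 ± 0.11 for the liver response minus the kidney response, and Col6a1 at -0.34 ± 0.12, both chains of type VI collagen. Col13a1 had 0.30 ± 0.13 and Col24a1 0.06 ± 0.10 in the other direction. The lowest adjusted P over the 42 genes was 0.835, so a difference between the tissues was not detectable with 3 mice per group. Of the 48 other collagen pathway genes on the mouse array, none was called in any of the 5 mouse comparisons, and neither was any of the 40 other collagen probe sets, whose differences lay between -0.50 and 0.49.

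**Figure D4:**
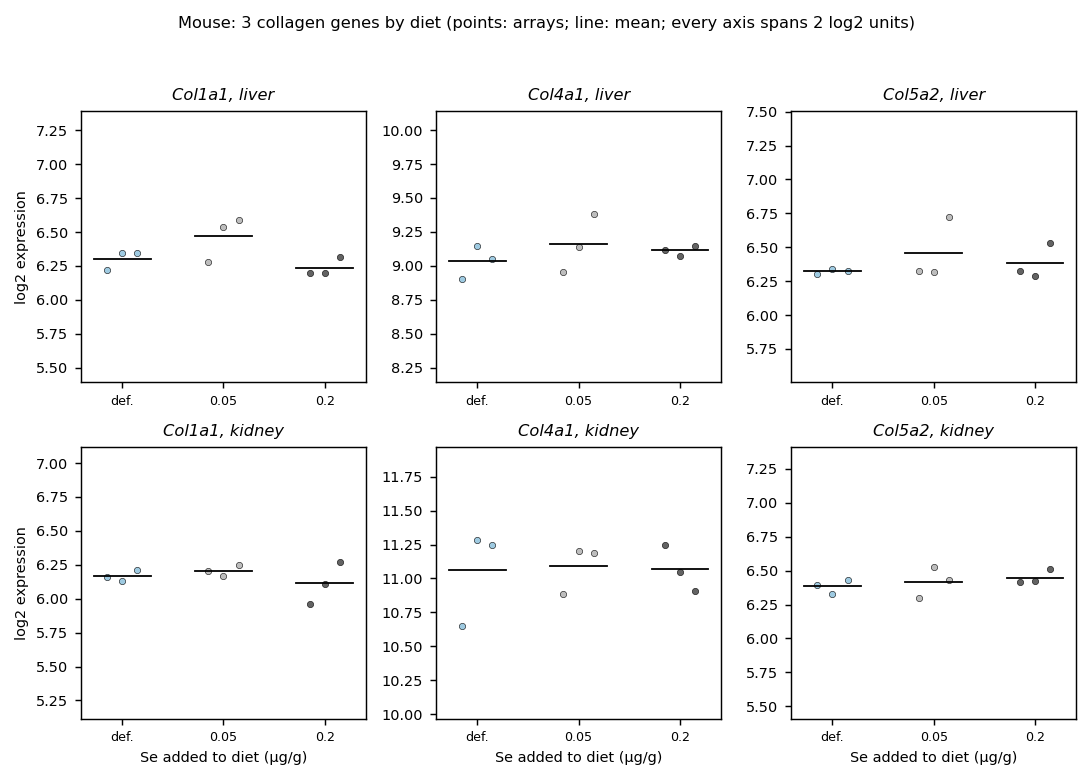
Log2 expression of Col1a1, Col4a1 and Col5a2 in single mice (points) with diet means (horizontal lines), liver and kidney, for mice fed the deficient, 0.05 and 0.2 μg Se/g diets. Every vertical axis spans 2 log2 units, and the diets overlap in each panel.

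**Figure D5:**
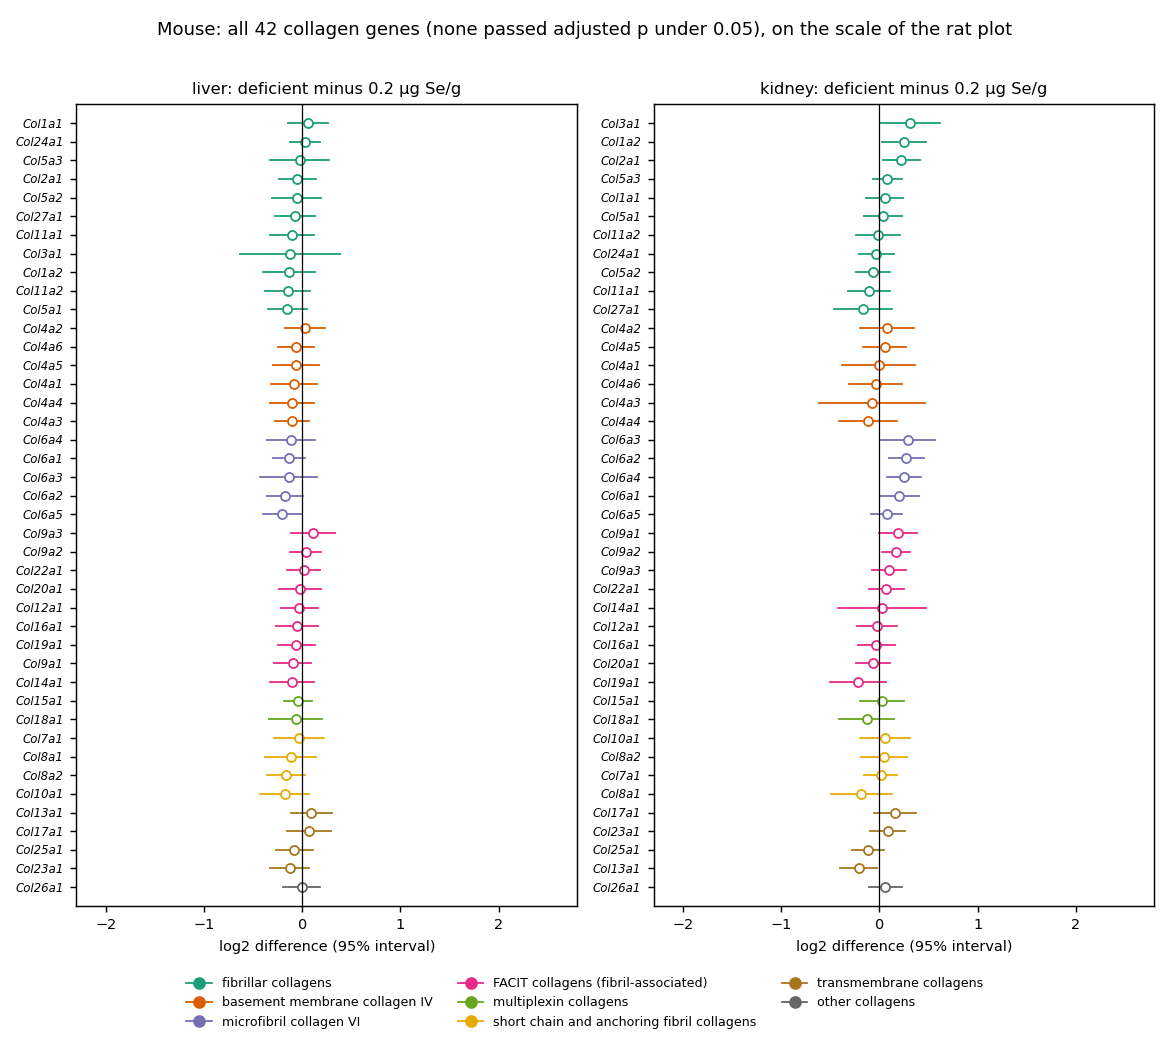
Difference in log2 expression, deficient minus 0.2 μg Se/g, for the 42 mouse collagen genes in liver and kidney, with 95% confidence intervals from limma (n = 3 mice per diet and tissue), on the same scale as the rat plot. No gene is called in either tissue.

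In rat liver 20 of the 41 genes had a mean above the median of all probe set means (median 6.27), and so had 30 of 42 in mouse liver (median 6.24) and 31 of 42 in kidney (median 6.27), counted within each array type. In rat liver 27 genes rested on 1 probe set and 14 on several, at most 3, and in mouse 15 and 27, at most 4. Of the 9 genes that rose at 5 μg Se/g, Col8a2 and Col4a2 had 1 probe set. Col1a1, Col1a2, Col4a1 and Col5a2 were called on both of theirs, whereas Col6a3, Col12a1 and Col11a1 were called on 1 only.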

How the data were processed

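Rat livers (18) and mouse livers (9) and kidneys (9) were hybridized to Affymetrix whole-genome arrays of their species. The deposited values are log2 expression per probe set, made by the authors from the scans. The submitters' processing notes name GCRMA, while the study's methods describe RMA, applied separately to each study and mouse tissue. Versions are not given in the sources used here. No per-sample column was left unused. Array controls (57 rat, 64 mouse) were dropped, leaving 31042 and 45037 probe sets, of which the platform annotation gives 1 symbol to 20826 and 34945, several to 436 and 932 and none to 9780 and 9160. All 82 mouse collagen probe sets were found under the same symbol in RefSeq. Groups follow the labels, and which rats shared a study follows the study's text. limma 3.58.1 in R 4.3.3 fitted 1 coefficient per diet, with Benjamini-Hochberg adjustment over all probe sets, in 10 comparisons. P values are limma's moderated ones, which set a difference against the spread between animals of a diet, pooled over the diets of the fit. Fits were tested on simulated data. Members, gene lists and the naming rule were chosen with earlier results of these data known. Named are members called in a comparison, otherwise the 2 with the smallest P in each direction, and Col1a1, Col4a1 and Col5a2 throughout. Col3a1, Col14a1, Col6a6, Col4a5, Col27a1 and partner chains were added after their values were seen. Body weight and food intake were not analysed here. Alternatives were each comparison fitted alone, all arrays together, trend and robust moderation, array weights, a low-signal filter, quantile normalization, every probe set, a replicate block and leaving out each animal. Same-numbered animals deviated together (r over 0.1 in every pair) for the deficient and 0.2 μg Se/g mouse livers and, at 0.2 μg Se/g, for liver and kidney. The block changed no collagen call there.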

Additional observations from a re-analysis of the deposited data

How the results depend on the processing

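With 3 animals per group, only large differences could pass. For 5 relative to 0.24 μg Se/g the count of 9 collagen genes (4.07% of all genes) became 7 with the 2 diets fitted alone (3.79%), 17 with array weights (13.3%) and 6 to 10 on leaving out single rats (1.65% to 5.44%). Col4a1, Col4a2, Col1a1, Col5a2, Col8a2 and Col12a1 kept their calls in all 15 alternatives. Col1a2 and Col6a3 each lost theirs in 6 of 15, and Col11a1 in 8 of 14. For 5 relative to 2 μg Se/g the count of 7 (4.50% of all genes) became 1 with the 2 diets fitted alone (Col1a1, 0.0352%), 19 with array weights (54.0%), 3 without replicate 1 or 2 of either diet (0.689% to 1.15%) and 13 without replicate 3 of the 2 μg Se/g diet (33.6%). For 2 relative to 0.24 μg Se/g the count of 0 became 16 with array weights (46.6% of all genes), and ran from 0 to 7 on leaving out single rats, with 7 only without replicate 3 of the 2 μg Se/g diet (24.2%). The weights did not converge in this 12-array fit, where replicate 2 at 2 μg Se/g took a weight of 154, against 0.163 to 1.72 for the others. Why the other counts moved was not tested. With the replicate number as a block the count was 10 for 5 relative to 0.24 μg Se/g (3.62% of all genes). Col11a1 lost its call there (adjusted P = 0.0541), and genes outside the 9 entered. For 5 relative to 2 μg Se/g it was 6 (3.18% of all genes), where Col14a1 and Col15a1 lost theirs (adjusted P = 0.0656 and 0.051). Elsewhere it was 0. Same-numbered rats correlated at -0.14 to 0.30, and the labels do not say what a number stands for. Whether same-numbered rats shared a processing step was not tested. Chosen after seeing the data, leaving replicate 1 at 2 μg Se/g or the whole 2 μg Se/g diet out of the fit gave 10 and 9 calls (5.44% and 6.15% of all genes) for 5 relative to 0.24 μg Se/g. The other 7 comparisons had 0 calls under every alternative run. No change reversed its sign among 223 values of called genes, of which 179 stayed called and 44 did not.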
